A study of Mus musculus with 12 samples.

Results

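The question addressed was how far the loss of Kdm5a altered the effect of losing Rb1 on the transcriptome of mouse embryonic fibroblasts (MEFs) driven toward muscle in mixed cultures. All genes with a mean deposited value of at least 10 over the 8 mixed-culture libraries were members, which gave 17199 of 36229 genes. The remaining 19030 genes were not tested, and 9797 of them had no read in any mixed library. At the threshold, Trpm2 lay just inside with a mean of 10.01 and Gm16126 just outside with 9.99. For each gene the interaction was (DKO minus Kdm5a KO) minus (Rb1 KO minus WT) on log2(value + 1), so a positive interaction means a higher Rb1 effect, in the signed sense, without Kdm5a than with it. The 4 genotypes were Kdm5a-/-;Rb1-/- (DKO), Rb1-/- (Rb1 KO), Kdm5a-/- (Kdm5a KO) and WT, all on C57BL/6 and with 2 libraries each. Every culture received an adenovirus carrying MyoD (Adeno-MyoD) in differentiation conditions (insulin at 10 µg/ml, horse serum at 2%) for 24 h, followed by 72 h in fresh medium. RNA was depleted of ribosomal RNA and sequenced as single reads of 40 bases, without separating myotubes from the other cells. Neither the targeted alleles nor the number of embryos or cultures behind a genotype are given in the sources used here. The p-values therefore measure only the spread between these libraries, which may be technical.

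Rb1 encodes the retinoblastoma protein, a pocket protein that binds E2F transcription factors and restrains the genes of DNA replication and mitosis. It is required for a normal exit from the cell cycle in muscle differentiation, where cells lacking it express late muscle genes poorly. Kdm5a (Jarid1a, RBP2) is a histone demethylase that removes methyl groups from lysine 4 of histone H3 and was first isolated as a protein that binds pRB. MyoD is a basic helix-loop-helix factor that converts fibroblasts to muscle and binds E-boxes, of which CAGCTG is a preferred form.

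Kdm5a held 1319 and 1369.7 in DKO, 2094 and 1886 in Rb1 KO, 1088 and 1192 in Kdm5a KO and 1637 and 1871 in WT. It was lower in each Kdm5a-null group than in the group with the same Rb1 genotype, by 0.62 on the log2 scale between Kdm5a KO and WT, and its interaction was 0.06 ± 0.12, limma adjusted p = 0.749. Rb1 held 5309 and 5662 in DKO, 4457 and 4448 in Rb1 KO, 5079 and 5193 in Kdm5a KO and 5616 and 5649.5 in WT, so the whole-gene count was not lost in either Rb1-null group and checks nothing about a deletion of part of the gene. The Rb1 interaction was 0.43 ± 0.07, limma adjusted p = 0.000444. Both genes share exons with another annotated gene, and reads may be split between them. Total reads ranged from 11983750 to 41309134 over the 8 libraries, and squared differences between replicates were 4.79 to 7.19 times counting error. Xist was present in the DKO and Kdm5a KO libraries and at 0 in the Rb1 KO and WT libraries, and Ddx3y showed the opposite, so the Kdm5a genotype went with the sex of the cells. A sex difference of equal size in both Rb1 genotypes cancels in the interaction, whereas a sex difference that depends on Rb1 cannot be told apart from an effect of Kdm5a.

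The interaction passed the test (limma, adjusted p threshold 0.05) for 6591 genes, which is 38.3% of those tested. Of these, 3240 (18.8%) were positive and 3351 (19.5%) negative. At least 2-fold was reached by 3020 genes (17.6%), 1601 positive and 1419 negative, and at least 4-fold by 1116. Over all genes tested the median interaction was −0.02, its quartiles were −0.50 and 0.49, and the median standard error was 0.23. Leaving out each library in turn gave 4935 to 6696 calls. A fit on all 12 libraries of the series, in which the more variable purified libraries shared the estimate of the spread, called 1520 positive and 1390 negative. Of the genes named by rule and described with their values here, that fit lost the calls of Rb1, Kdm5b, Myod1, Ppargc1a, Agtr2, Ccne2, E2f2 and Ctsb, with limma adjusted p from 0.0555 (Ccne2) to 0.488 (Myod1). Genes chosen after their values were seen, such as Postn, Fn1, Hoxc6 and Hoxc10, were not checked in it.

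Classes were then set by the Rb1 effect in each Kdm5a background. Rb1 loss on the intact background (Rb1 KO against WT) passed for 71.1% of the genes tested, and with at least 2-fold for 6944 (40.4%), of which 3930 were higher and 3014 lower in Rb1 KO. On the Kdm5a-null background (DKO against Kdm5a KO) 67.2% passed. DKO against Rb1 KO passed for 47.3% and DKO against WT for 67.9%. Of the 6944 genes, 2564 (36.9%) were suppressed, meaning that the interaction passed against the Rb1 effect and that no significant effect of opposite sign remained. In 1696 of these the effect still passed in the same direction (partial suppression), and in 868 it no longer passed (full suppression). Reversal, with a significant Rb1 effect of opposite sign in the absence of Kdm5a, held for 255 genes (3.67%), and enhancement for 383 (5.52%). The additive class, in which the interaction did not pass and its 95% interval lay within 1.5-fold in either direction, held 717 genes (10.3%). The other 3025 genes (43.6%) had an interaction that did not pass and an interval too wide to call additive. The classes are descriptions, because the Rb1 effect and the interaction share the Rb1 KO and WT libraries.

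**Figure D1:**
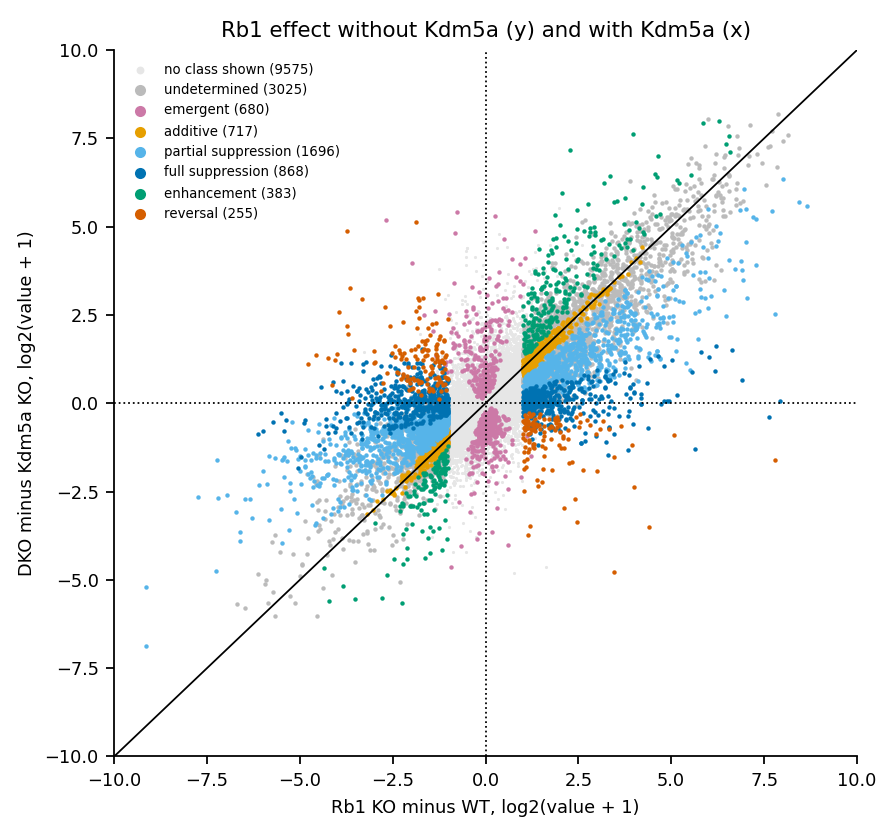
Rb1 effect of each of the 17199 genes without Kdm5a (y axis, DKO minus Kdm5a KO) against the effect with Kdm5a (x axis, Rb1 KO minus WT), both as differences of log2(value + 1). Points are genes coloured by class, the solid diagonal is equality and the dotted lines mark no effect; the 1696 partially suppressed genes lie between the diagonal and the horizontal dotted line, and the 255 reversed genes lie across it.

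Partial suppression left a median of 47.4% of the log2 effect for genes that fell in Rb1 KO and 52.1% for genes that rose. Reversed genes had medians of −64.1% for falls and −50.1% for rises, and additive genes 95.4% and 98.2%. Full suppression was called mostly at low levels. Its members had a median value of 69.4 for falls and 117 for rises, against 1040 and 491 in partial suppression, and the median standard error of their interaction was 0.44 and 0.35, against 0.14 and 0.19. Requiring in addition that the 95% interval of DKO against Kdm5a KO lie within 1.5-fold, a condition chosen after seeing the data, left 245 of the 868. A miss of the test in DKO against Kdm5a KO therefore does not show that the Rb1 effect was gone.

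**Figure D2:**
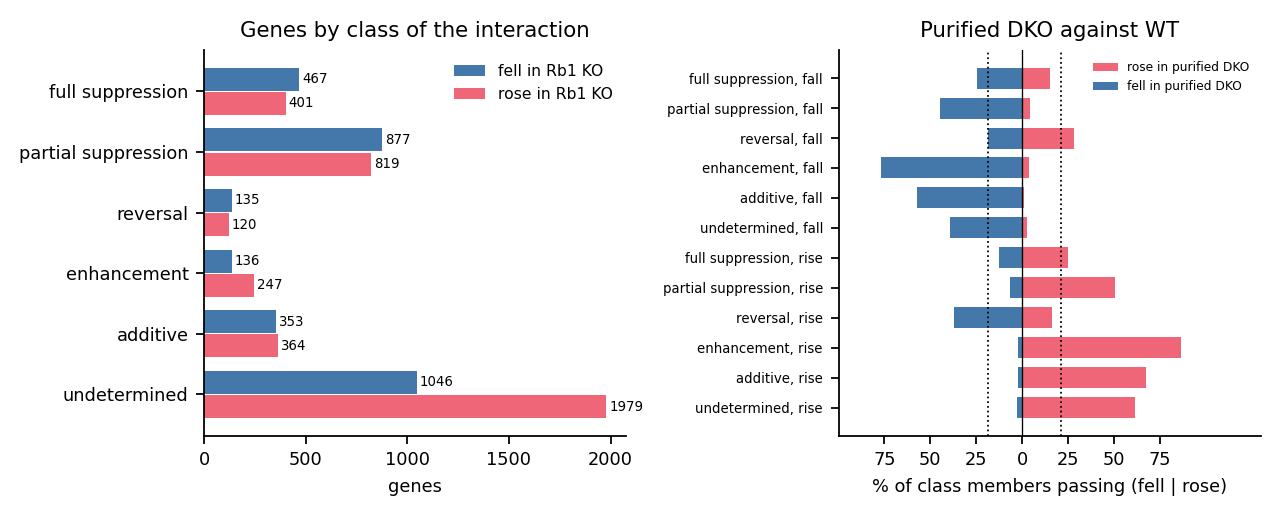
Left, number of genes per interaction class, split by whether the gene fell or rose in Rb1 KO against WT (bars, x axis in genes). Right, share of each class that fell (left of 0) or rose (right of 0) in purified DKO against purified WT myotubes, in percent of members tested there, with dotted lines at the shares over all genes (18.6% fell, 21.0% rose); of the genes enhanced upward 86.4% rose, and of those reversed after a rise 37.3% fell.

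The contractile machinery fell less after Rb1 loss on the Kdm5a-null background than on the intact one. Of 57 sarcomere and contractile genes tested, 48 had a positive interaction, 1 a negative one and 8 none that passed. Their median Rb1 effect was −0.91 without Kdm5a and −2.71 with it, and the median interaction was 1.76. In this list 35 genes were partly suppressed, 6 fully suppressed and 4 reversed. Counts for this and the later lists are read against 18.8% positive and 19.5% negative interactions over all genes. In Kdm5a KO against WT 22 of the 57 fell and 9 rose, against 13.8% and 13.4% of all genes. A lower level in Kdm5a KO itself raises the interaction. Summed over the list, the level was 304134 and 318837 in DKO, 117781 and 116780 in Rb1 KO, 701462 and 743056 in Kdm5a KO and 804087 and 777996 in WT libraries, so DKO lay between Rb1 KO and the genotypes with intact Rb1. In mixed cultures, fewer myotubes and less RNA per myotube cannot be told apart.

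Lmod2, a leiomodin that lengthens thin filaments, gave a clear case of partial suppression. Its values were 2048 and 1979 in DKO, 108 and 121 in Rb1 KO, 2741 and 3067 in Kdm5a KO and 4309.7 and 4254 in WT. Both Rb1 KO libraries lay far below all others, and DKO lay just under Kdm5a KO (log2 interaction of 4.69 ± 0.11 SE, as for all interactions here, limma adjusted p = 7.66e-11). The Rb1 effect was −0.53 without Kdm5a and −5.21 with it. Des, the muscle intermediate filament, held 7155 and 7299 in DKO, 1161 and 1254 in Rb1 KO, 16407 and 15908 in Kdm5a KO and 21741 and 22174 in WT (interaction of 3.02 ± 0.07, limma adjusted p = 7.66e-11). The genotypes did not overlap, and 27.7% of its log2 Rb1 effect remained. Myh3, the embryonic myosin heavy chain, held 20397 and 21204 in DKO, 4384 and 4678 in Rb1 KO, 99141 and 107427 in Kdm5a KO and 77084 and 76912 in WT (interaction of 1.78 ± 0.07, limma adjusted p = 3.45e-09). For this gene the departure was positive on the log2 scale and negative on the linear scale, at −10017 units.

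Calcium handling followed the same pattern. Of 30 genes of calcium release and excitation-contraction coupling, 25 had a positive interaction and 1 a negative one, with a median of 1.43. In Kdm5a KO against WT 12 of the 30 fell and 0 rose. Cacng1, the gamma subunit of the muscle calcium channel, held 1671 and 1618 in DKO, 516 and 484 in Rb1 KO, 2166 and 2107 in Kdm5a KO and 3150.3 and 2967 in WT (interaction of 2.23 ± 0.10, limma adjusted p = 5.45e-09). Of 17 acetylcholine receptor and junction genes, 10 were positive and 3 negative. Musk, the kinase that organises the neuromuscular junction, held 575 and 604 in DKO, 94.5 and 84.2 in Rb1 KO, 1654 and 1799 in Kdm5a KO and 4442 and 4721 in WT, with DKO between Rb1 KO and both genotypes with intact Rb1 (interaction of 4.12 ± 0.13, limma adjusted p = 4.21e-10). Chrnd, the delta subunit of the acetylcholine receptor, held 2268 and 2362 in DKO, 616 and 652 in Rb1 KO, 5955 and 5546 in Kdm5a KO and 5772 and 5254 in WT (interaction of 1.81 ± 0.09, limma adjusted p = 2.85e-08). Cav3, the muscle caveolin, held 497 and 429.8 in DKO, 147 and 185 in Rb1 KO, 2232 and 2229 in Kdm5a KO and 3620.5 and 3716 in WT, again with DKO above Rb1 KO and below the other groups (interaction of 2.20 ± 0.15, limma adjusted p = 3.25e-07).

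Genes of muscle energy and glycogen use moved likewise, with 20 of 24 positive, none negative and a median interaction of 1.61. Ppp1r3a, which targets protein phosphatase 1 to glycogen, held 1781 and 1888 in DKO, 76.97 and 99.6 in Rb1 KO, 3807 and 3832 in Kdm5a KO and 3616 and 3455 in WT (interaction of 4.26 ± 0.14, limma adjusted p = 8.14e-10). Its Rb1 KO libraries were more than an order of magnitude below every other library. Pygm, the muscle glycogen phosphorylase, held 2946 and 2878 in DKO, 876 and 919.6 in Rb1 KO, 6539 and 6632 in Kdm5a KO and 8392 and 8414 in WT (interaction of 2.05 ± 0.07, limma adjusted p = 1.39e-09). Cox6a2, the muscle form of a cytochrome oxidase subunit, held 413 and 374 in DKO, 6.75 and 9.96 in Rb1 KO, 1131 and 1269 in Kdm5a KO and 1333 and 1451 in WT (interaction of 5.63 ± 0.24, limma adjusted p = 4.57e-09), and it shares exons with another gene.

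**Figure D3:**
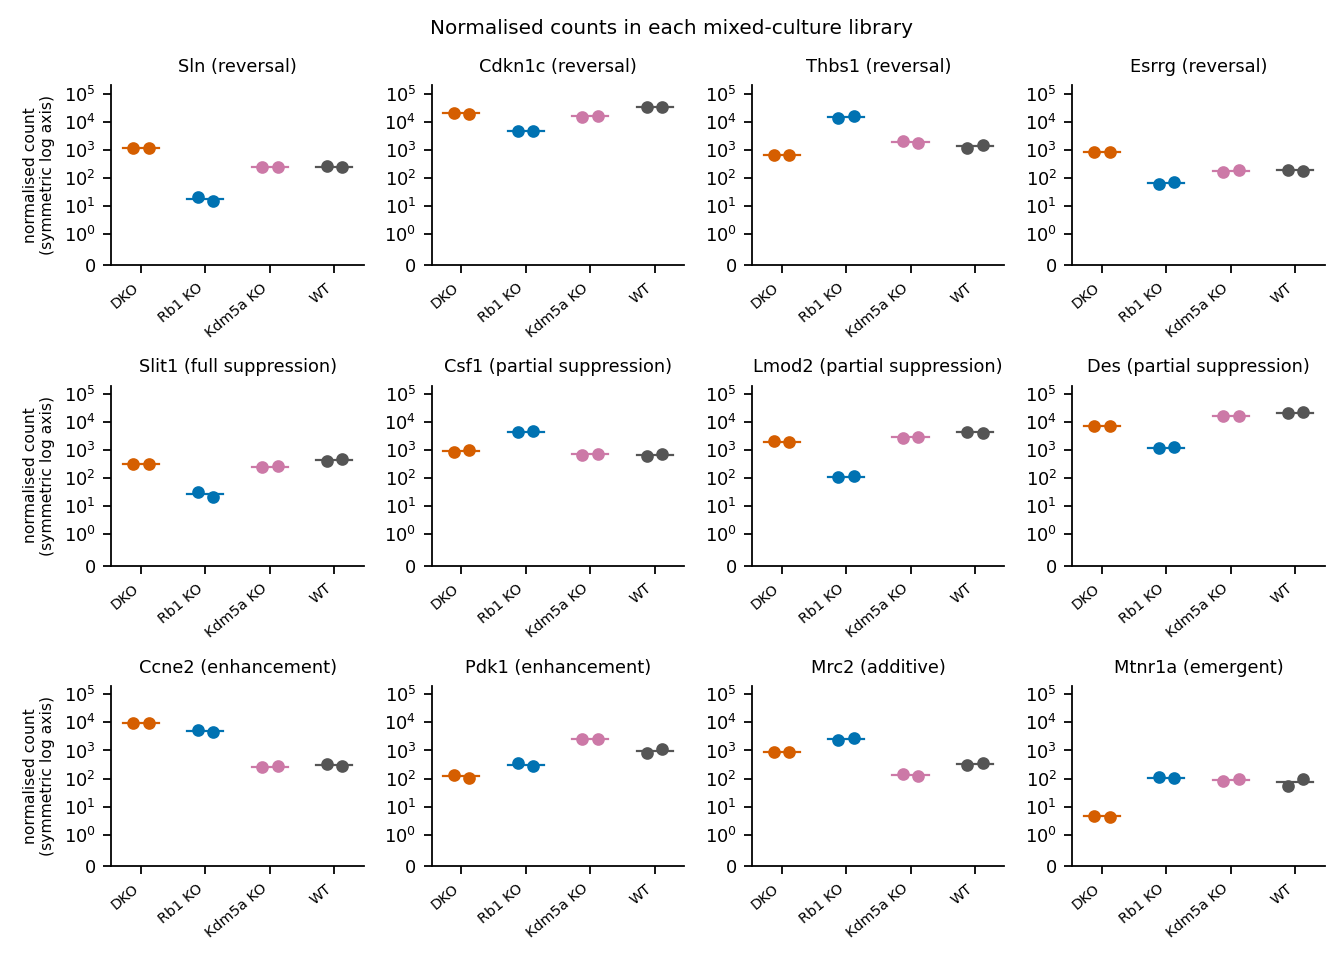
Deposited normalised counts of 12 genes in each of the 8 mixed-culture libraries (points, y axis symmetric log from 0), with the mean of the 2 libraries of a genotype as a line. Sln in DKO (1133 and 1138) lay above all other genotypes, Lmod2 in DKO lay close to Kdm5a KO, Thbs1 in DKO lay below all other genotypes, and Ccne2 was highest in DKO.

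In a smaller group the gene was lower after Rb1 loss on the intact background and higher after it on the Kdm5a-null background. Sln, sarcolipin, a regulator of the sarcoplasmic calcium pump, held 1133 and 1138 in DKO, 21.6 and 15.4 in Rb1 KO, 252 and 242 in Kdm5a KO and 267 and 244 in WT. Kdm5a KO and WT overlapped, Rb1 KO was lowest and DKO highest (interaction of 5.93 ± 0.25, limma adjusted p = 4.67e-09). Pde1c, a calmodulin-dependent phosphodiesterase, held 2209 and 2281 in DKO, 101 and 78.7 in Rb1 KO, 584 and 569.9 in Kdm5a KO and 1106 and 1242 in WT (interaction of 5.66 ± 0.17, limma adjusted p = 2.79e-10). Esrrg, an oestrogen-related receptor that drives oxidative metabolism, held 841 and 839.9 in DKO, 63.5 and 73.3 in Rb1 KO, 164 and 187 in Kdm5a KO and 191 and 183 in WT, with DKO above and Rb1 KO below an overlapping Kdm5a KO and WT (interaction of 3.70 ± 0.21, limma adjusted p = 6.90e-08). The Rb1 effect on Sln was 2.20 without Kdm5a and −3.73 with it, and that on Esrrg 2.26 and −1.44.

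Other reversed falls had a lower level in Kdm5a KO itself. Cd36, a fatty acid transporter, held 904 and 853 in DKO, 47.3 and 63.4 in Rb1 KO, 118 and 182 in Kdm5a KO and 704 and 1031 in WT (interaction of 6.51 ± 0.32, limma adjusted p = 1.56e-08). Its DKO libraries lay within the range of WT, and both single knockouts lay below. Igfbp3, which binds insulin-like growth factors, held 2907 and 2773 in DKO, 2706 and 2595 in Rb1 KO, 1374 and 1753 in Kdm5a KO and 6295 and 8368 in WT (interaction of 2.32 ± 0.17, limma adjusted p = 6.05e-07). Cdkn1c, the cell-cycle inhibitor p57, held 20110.1 and 19710.2 in DKO, 4768 and 4559 in Rb1 KO, 15424 and 15905 in Kdm5a KO and 32948 and 32878 in WT (interaction of 3.17 ± 0.06, limma adjusted p = 2.21e-11), and it shares exons with another gene. The DKO libraries lay just above Kdm5a KO, whereas Rb1 KO lay far below WT. Dlk1, a Notch-like ligand of precursor cells, held 98.4 and 79.8 in DKO, 27.01 and 24.4 in Rb1 KO, 0 and 5.601 in Kdm5a KO and 57.4 and 165 in WT, and both DKO libraries lay between the 2 WT libraries (interaction of 7.01 ± 1.02, limma adjusted p = 0.000168). With a Kdm5a KO library at 0, the size of the Dlk1 interaction depends on the pseudocount. Over the 135 reversed falls, 78 fell in Kdm5a KO against WT, a comparison in which 13.8% of all genes fell and which shares the Kdm5a KO and WT libraries with the interaction.

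Fully suppressed falls included Slit1, an axon guidance ligand, with 328 and 327 in DKO, 32.4 and 21.7 in Rb1 KO, 248 and 271 in Kdm5a KO and 419.96 and 470.1 in WT (interaction of 4.35 ± 0.27, limma adjusted p = 1.41e-07). Mypn, a sarcomeric protein of the Z-line, held 175 and 152 in DKO, 5.401 and 16.3 in Rb1 KO, 67.8 and 109 in Kdm5a KO and 124 and 84.2 in WT (interaction of 4.21 ± 0.60, limma adjusted p = 0.000139). Kcnj12, an inward rectifier potassium channel, held 321 and 256 in DKO, 16.2 and 36.2 in Rb1 KO, 183 and 228 in Kdm5a KO and 305 and 295 in WT (interaction of 4.06 ± 0.42, limma adjusted p = 1.01e-05). In these 3 genes both Rb1 KO libraries lay below every other library. Brinp2, a neural protein linked to cell-cycle arrest, held 55.8 and 51.8 in DKO, 4.05 and 1.81 in Rb1 KO, 109 and 79.8 in Kdm5a KO and 292 and 197 in WT, where DKO stayed below WT (interaction of 5.22 ± 0.51, limma adjusted p = 6.38e-06).

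Promoter sequence was examined as a description of these groups. RefSeq promoters on GRCm38.p6, from 250 bases before to 50 after a transcript start, were matched by symbol for 11570 of the genes tested, with 14818 promoters in all. The E-box CAGCTG, a palindrome and so the same on both strands, was present in 16.1% of all these promoters. It was present in 96 of 384 promoters of fully suppressed falls, and in 22.7% of partly suppressed falls, 23.0% of reversed falls, 19.4% of enhanced falls and 20.2% of undetermined falls, against 13.8% of additive falls. Reversed rises held it in 22.1%. A match is not a bound site. The stretches upstream of Musk and Cav3, which were partly suppressed, and of Pde1c, which was reversed, are shown because they hold the E-box (capitals) close to the start, at 68, 106 and 29 bases before it. They come from chr4:58285867-58285926 (plus strand), chr6:112459372-112459431 (plus strand) and chr6:56362811-56362870 (minus strand), each written 5′ to 3′ on the strand of the gene.
Musk: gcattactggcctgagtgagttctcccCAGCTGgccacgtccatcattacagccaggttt
Cav3: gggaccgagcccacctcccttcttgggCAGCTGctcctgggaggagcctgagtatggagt
Pde1c: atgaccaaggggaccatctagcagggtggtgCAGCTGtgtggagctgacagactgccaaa

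The interactions of the myogenic factors themselves were smaller at the median. Of 24 myogenic transcription factors and cofactors, 11 were positive, 3 negative and 10 did not pass, with a median interaction of 0.41. In Kdm5a KO against WT 12 of the 24 fell and 4 rose, against 13.8% and 13.4% of all genes. Myod1 held 2502 and 2611 in DKO, 2351 and 2907 in Rb1 KO, 4124 and 4120.2 in Kdm5a KO and 5852 and 6886 in WT (interaction of 0.59 ± 0.13, limma adjusted p = 0.00362), and its counts cannot separate the endogenous gene from the adenoviral one. Its DKO and Rb1 KO libraries overlapped (log2 difference −0.03), and Kdm5a KO was below WT by 0.62. The positive Myod1 interaction thus reflects the lower Kdm5a KO level and no higher level in DKO than in Rb1 KO. Myog, myogenin, held 13308 and 12735 in DKO, 10378 and 10372 in Rb1 KO, 8748 and 8969 in Kdm5a KO and 16127 and 18252 in WT, with DKO above Rb1 KO and Kdm5a KO and below WT (interaction of 1.28 ± 0.08, limma adjusted p = 1.41e-07). For Myog the log2 difference was −0.95 between Kdm5a KO and WT and 0.33 between DKO and Rb1 KO. Mef2c, a cofactor of the myogenic factors, held 4603 and 4824 in DKO, 1252 and 1346 in Rb1 KO, 13133 and 13707 in Kdm5a KO and 14872 and 15866 in WT (interaction of 2.05 ± 0.08, limma adjusted p = 2.60e-09). Myf6, a late myogenic factor, was low outside WT, with 0.526 and 2.37 in DKO, 0 and 0.905 in Rb1 KO, 8.14 and 21.7 in Kdm5a KO and 235 and 374 in WT. Its interaction passed (interaction of 5.08 ± 0.91, limma adjusted p = 0.000795), although at most 2.37 units were present in either Rb1-null genotype. Fusion and surface genes were mixed, with 11 of 19 positive and 5 negative.

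Mitochondrial lists are read against the 38.3% of all genes with a called interaction. Of 37 complex I subunits, 7 were positive, 4 negative and 26 did not pass, and of 75 mitochondrial ribosomal proteins 10 were positive, 6 negative and 59 did not pass. Complexes II to V had 12 of 42 positive and none negative, and genes of the tricarboxylic acid cycle and fatty acid oxidation 15 of 40 positive and 4 negative. Mitochondrial biogenesis and dynamics genes had 7 of 31 positive and 3 negative. The median Rb1 effect of complex I was −0.95 without Kdm5a and −0.97 with it. Ppargc1a, the coactivator PGC-1alpha that promotes mitochondrial biogenesis, held 669 and 614 in DKO, 185 and 227 in Rb1 KO, 409.6 and 389.97 in Kdm5a KO and 345 and 257 in WT, highest in DKO and lowest in Rb1 KO (interaction of 1.21 ± 0.22, limma adjusted p = 0.000798). All 7 mitochondrially encoded messengers tested were positive, with a median of 0.43, but the calls of mt-Nd5, mt-Cytb and mt-Co1 were lost in the fit on all 12 libraries (limma adjusted p = 0.0909, 0.423 and 0.388).

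**Figure D4:**
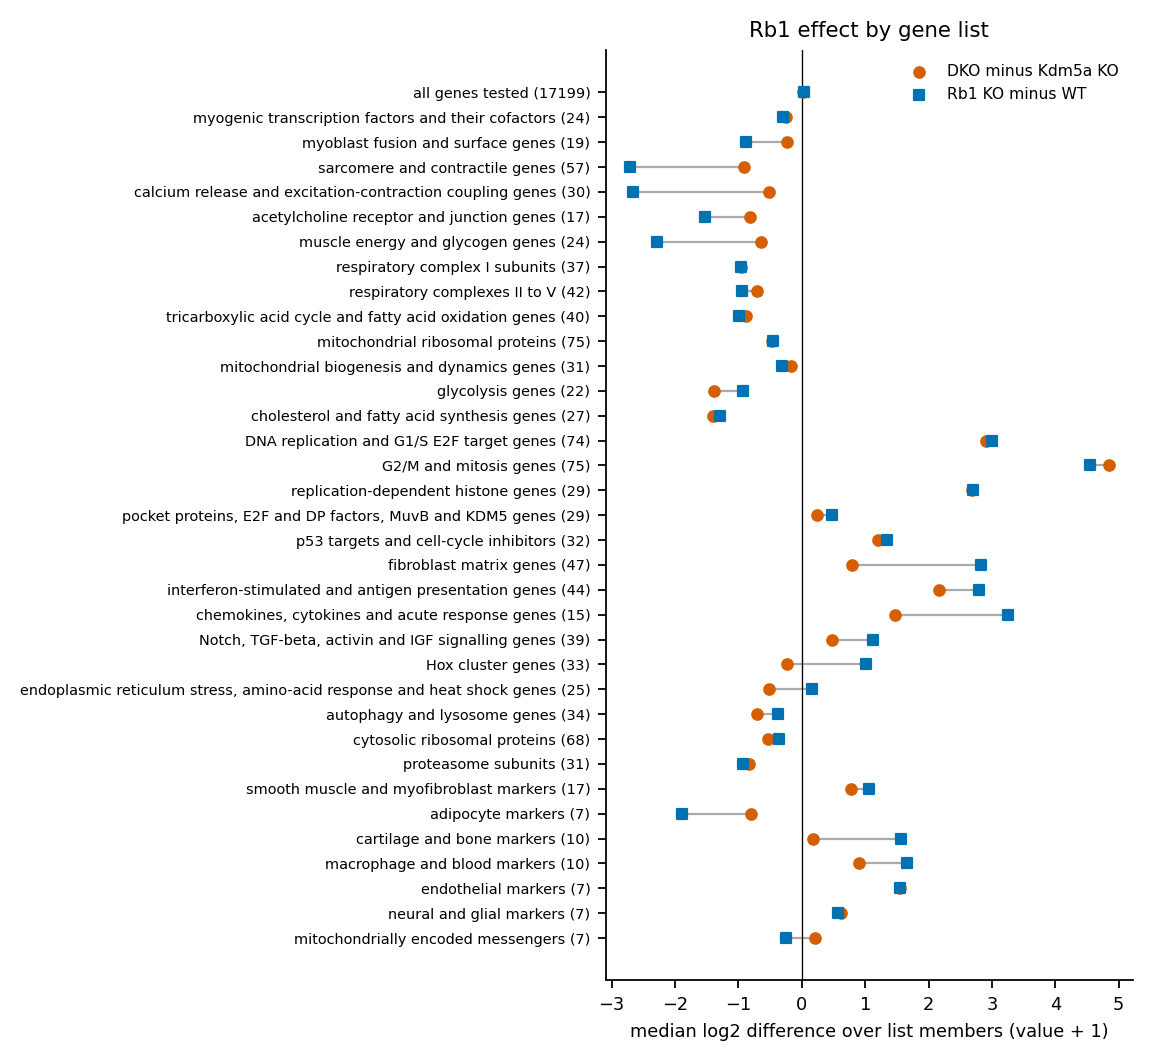
Median log2 difference over the members of each gene list (number of genes tested in brackets) for DKO minus Kdm5a KO (circles) and Rb1 KO minus WT (squares), in log2(value + 1). The contractile, calcium and energy lists lie nearer to 0 without Kdm5a (sarcomere −0.91 against −2.71), as do the fibroblast matrix genes (0.79 against 2.83), while the replication list is nearly unmoved (2.90 against 3.0007).

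Fibroblast matrix genes had the highest share of negative interactions of the lists examined, with 40 of 47 negative, 1 positive and 6 not passing. Their median Rb1 effect was 0.79 without Kdm5a and 2.83 with it, with 25 genes partly suppressed, 4 fully suppressed and 5 reversed. The summed level was 61601 and 62015 in DKO, 248630 and 281110 in Rb1 KO, 65437 and 64039 in Kdm5a KO and 72095 and 74561 in WT libraries. Only the Rb1 KO libraries stood apart, and the sums of the other 3 genotypes lay within 61601 to 74561. Whether more fibroblasts or more matrix RNA per cell were present in Rb1 KO cannot be told apart.

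Col5a2, a fibrillar collagen, held 2246 and 2391 in DKO, 17174 and 18364 in Rb1 KO, 3432 and 3291 in Kdm5a KO and 3007 and 3077 in WT (interaction of −3.08 ± 0.08, limma adjusted p = 1.24e-10), with DKO below both genotypes with intact Rb1. Thbs1, thrombospondin 1, held 660.2 and 686 in DKO, 13982 and 15561 in Rb1 KO, 2057 and 1795 in Kdm5a KO and 1202 and 1486 in WT (interaction of −4.98 ± 0.14, limma adjusted p = 2.16e-10), and Col12a1, a fibril-associated collagen, held 843 and 928 in DKO, 10609 and 13157 in Rb1 KO, 3584 and 2963 in Kdm5a KO and 1901 and 1935 in WT (interaction of −4.50 ± 0.15, limma adjusted p = 5.14e-10). In both, DKO was the lowest genotype and Rb1 KO the highest. Thbs1 shares exons with another gene. Postn and Fn1, the second of which shares exons with another gene, were chosen after their values were seen, and were partly and fully suppressed. Postn, periostin, held 1259 and 1205 in DKO, 19721 and 20093 in Rb1 KO, 309 and 339 in Kdm5a KO and 887 and 1158 in WT, and Fn1, fibronectin, held 2682 and 3202 in DKO, 20547 and 26803 in Rb1 KO, 2956 and 2994 in Kdm5a KO and 1161 and 1452 in WT, with DKO near Kdm5a KO.

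Among reversed rises with no shared exon and a highest group mean of at least 100, those with the largest interactions were Anxa8, Kcne4, Kcnd2 and Stmn2. Anxa8, an annexin, held 38.4 and 26.9 in DKO, 934 and 1003 in Rb1 KO, 92.2 and 107 in Kdm5a KO and 3.59 and 3.198 in WT (interaction of −9.39 ± 0.39, limma adjusted p = 4.48e-09), the largest interaction of the genes named by class. With WT this low, the size of the Anxa8 interaction depends on the pseudocount. Kdm5a KO was itself far above WT, which adds to that size, and DKO stayed above WT. Kcne4, an accessory subunit of potassium channels, held 19.5 and 7.11 in DKO, 221 and 212 in Rb1 KO, 129 and 134 in Kdm5a KO and 34.7 and 42.6 in WT (interaction of −5.83 ± 0.53, limma adjusted p = 3.25e-06). Kcnd2, a potassium channel of the A-type current, held 18.9 and 35.2 in DKO, 591 and 619 in Rb1 KO, 66.9 and 54.6 in Kdm5a KO and 33.5 and 43.7 in WT (interaction of −5.14 ± 0.42, limma adjusted p = 1.48e-06). For these 3 genes Rb1 KO was the highest genotype, and DKO lay below Kdm5a KO. Stmn2, stathmin 2, a neuronal regulator of microtubules, differed in being highest in Kdm5a KO, with 12.1 and 7.901 in DKO, 89.1 and 69.7 in Rb1 KO, 126 and 162 in Kdm5a KO and 22.7 and 53.3 in WT (interaction of −4.89 ± 0.57, limma adjusted p = 2.72e-05).

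Fully suppressed rises included genes seen almost only in Rb1 KO. Ifi202b, of the interferon-inducible p200 family, held 0 and 0 in DKO, 339 and 242 in Rb1 KO, 0 and 0.7001 in Kdm5a KO and 0 and 1.07 in WT. Rprl3, annotated as a ribonuclease P RNA-like gene, held 4.21 and 4.74 in DKO, 3740.3 and 4157 in Rb1 KO, 2.71 and 6.301 in Kdm5a KO and 21.5 and 10.7 in WT. All other libraries held at most 21.5 of either. Pthlh, parathyroid hormone-like hormone, held 13.2 and 18.96 in DKO, 105 and 95.9 in Rb1 KO, 47.9 and 33.6 in Kdm5a KO and 0 and 3.198 in WT, and Gbp3, a guanylate-binding protein, held 95.2 and 77.8 in DKO, 108 and 129 in Rb1 KO, 47.9 and 62.3 in Kdm5a KO and 0 and 0 in WT. In these 2 genes Kdm5a KO was itself above WT. Both had a WT library at 0, so the size of their fitted effects depends on the pseudocount. Gbp3 was not confined to Rb1 KO, and its DKO libraries lay above Kdm5a KO and below Rb1 KO. Of the 401 fully suppressed rises 149 rose in Kdm5a KO against WT, where 13.4% of all genes rose, and in 22 the means of both DKO and Kdm5a KO lay under 10.

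Partly suppressed rises named by size were Cdh18, Pappa, Ccn5 and Etnk2. Cdh18, a cadherin, held 52.6 and 62.4 in DKO, 589 and 668 in Rb1 KO, 30.7 and 28.01 in Kdm5a KO and 9.57 and 17.1 in WT (interaction of −4.56 ± 0.42, limma adjusted p = 4.26e-06). Pappa, a protease that cleaves binding proteins of insulin-like growth factors, held 63.6 and 79.01 in DKO, 1312 and 1539 in Rb1 KO, 31.7 and 32.2 in Kdm5a KO and 38.3 and 27.7 in WT (interaction of −4.28 ± 0.33, limma adjusted p = 7.98e-07). Ccn5, a matricellular protein, held 78.9 and 84.5 in DKO, 999 and 1180.2 in Rb1 KO, 18.1 and 27.3 in Kdm5a KO and 19.1 and 20.3 in WT (interaction of −3.88 ± 0.36, limma adjusted p = 4.20e-06). In each the Rb1 KO libraries were several-fold above DKO, and DKO was above both genotypes with intact Rb1. Etnk2, an ethanolamine kinase, held 6.31 and 3.56 in DKO, 228 and 215 in Rb1 KO, 0 and 0 in Kdm5a KO and 0 and 0 in WT. Its interaction passed in limma but missed with edgeR and DESeq2.

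Signalling and cytokine genes shared this direction. Of 39 Notch, TGF-beta, activin and insulin-like growth factor genes, 22 were negative and 9 positive, with a median of −0.76. Notch3, a Notch receptor, held 407 and 374 in DKO, 955 and 960.3 in Rb1 KO, 101 and 95.2 in Kdm5a KO and 51.4 and 46.9 in WT (interaction of −2.28 ± 0.21, limma adjusted p = 3.50e-06), and it shares exons with another gene. Tgfbr2, a TGF-beta receptor, held 2596 and 2698 in DKO, 4884 and 5238 in Rb1 KO, 5110.2 and 4805 in Kdm5a KO and 3740.1 and 3579 in WT, with DKO lowest (interaction of −1.37 ± 0.08, limma adjusted p = 9.67e-08). Of 15 chemokine, cytokine and acute response genes, 7 were negative and 1 positive. Csf1, a macrophage growth factor, held 872 and 1037 in DKO, 4348 and 4747 in Rb1 KO, 689.98 and 754 in Kdm5a KO and 641 and 731 in WT (interaction of −2.33 ± 0.14, limma adjusted p = 9.44e-08), with Rb1 KO far above the rest and DKO slightly above Kdm5a KO and WT. Ptgs2, cyclooxygenase 2, held 532 and 587 in DKO, 1924 and 2000.3 in Rb1 KO, 957 and 856 in Kdm5a KO and 788 and 795 in WT and was reversed (interaction of −2.00 ± 0.12, limma adjusted p = 9.67e-08). Lif, a cytokine of the interleukin 6 family, held 380.3 and 382 in DKO, 822 and 802 in Rb1 KO, 178 and 128 in Kdm5a KO and 44.3 and 69.3 in WT (interaction of −2.52 ± 0.30, limma adjusted p = 3.02e-05).

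Interferon-stimulated and antigen presentation genes were more often negative than positive. Of 44 tested, 21 were negative, 6 positive and 17 did not pass, against 19.5% negative and 18.8% positive over all genes. The median interaction was −0.71, and the median Rb1 effect was 2.17 without Kdm5a and 2.79 with it. Stat2, a transcription factor of the interferon response, held 349.8 and 369.8 in DKO, 483 and 607 in Rb1 KO, 495 and 499 in Kdm5a KO and 249 and 266 in WT, lower in DKO than in Kdm5a KO but higher in Rb1 KO than in WT (interaction of −1.54 ± 0.18, limma adjusted p = 2.59e-05). Igtp and Trim30a, from the smaller positive group, were high in DKO alone. Igtp, an interferon-inducible GTPase, held 1235 and 1064 in DKO, 203 and 228 in Rb1 KO, 159 and 193 in Kdm5a KO and 169.9 and 244 in WT (interaction of 2.63 ± 0.25, limma adjusted p = 4.83e-06), and it shares exons with another gene. Trim30a, a tripartite motif protein induced by interferon, held 176 and 163 in DKO, 28.4 and 19.9 in Rb1 KO, 10.9 and 13.3 in Kdm5a KO and 15.6 and 21.3 in WT (interaction of 3.34 ± 0.50, limma adjusted p = 0.000224).

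The proliferation lists had high median Rb1 effects in both Kdm5a backgrounds, and called interactions in them are read against the 38.3% over all genes. Of 74 E2F target genes that act in G1/S and replication, 13 were positive, 16 negative and 45 did not pass. The median Rb1 effect was 2.90 without Kdm5a and 3.0007 with it. Of these genes 15 were partly suppressed, 1 fully suppressed, 10 enhanced and 9 additive, and 35 could not be placed. Of 75 G2/M and mitosis genes, 16 were positive, 8 negative and 51 did not pass, with a median Rb1 effect of 4.84 without Kdm5a and 4.54 with it. In this list 15 genes were enhanced, 7 partly suppressed, 1 reversed and 5 additive. The interaction of the other 45 members with an Rb1 effect of at least 2-fold did not pass, and its interval was too wide to call them additive.

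Ccne2, cyclin E2, which drives entry into S phase, held 9252 and 9475 in DKO, 5435 and 4623 in Rb1 KO, 258 and 277 in Kdm5a KO and 336 and 274 in WT, with DKO above Rb1 KO and both far above Kdm5a KO and WT (interaction of 1.08 ± 0.14, limma adjusted p = 8.04e-05). It shares exons with another gene. Cdk2, the partner kinase of cyclin E, held 6265 and 6267 in DKO, 3717 and 3296 in Rb1 KO, 2199 and 2067 in Kdm5a KO and 1937 and 2188 in WT (interaction of 0.79 ± 0.10, limma adjusted p = 7.93e-05). E2f2, an activating E2F, held 2198 and 2253 in DKO, 847 and 885 in Rb1 KO, 976 and 914 in Kdm5a KO and 855 and 643 in WT, and only DKO stood apart (interaction of 1.01 ± 0.16, limma adjusted p = 0.000275). Pttg1, securin, was the reversed mitotic gene, with 149 and 144 in DKO, 317 and 312 in Rb1 KO, 239.6 and 204 in Kdm5a KO and 129 and 153 in WT (interaction of −1.74 ± 0.23, limma adjusted p = 7.21e-05). Among pocket proteins, E2F, MuvB and KDM5 genes, 6 of 29 were positive, 7 negative and 16 did not pass. Kdm5b, a paralog of Kdm5a, held 835 and 837 in DKO, 1118 and 1106 in Rb1 KO, 2255 and 2046 in Kdm5a KO and 1878 and 2113 in WT (interaction of −0.52 ± 0.11, limma adjusted p = 0.0025). Among p53 targets and inhibitors of the cell cycle, 7 of 32 were positive and 6 negative. This list and the list of pocket proteins are read against the 18.8% positive and 19.5% negative over all genes. Pmaip1, the apoptosis activator Noxa, held 8101 and 7890.2 in DKO, 2607 and 2399 in Rb1 KO, 2730.1 and 3000.1 in Kdm5a KO and 1887 and 1860.1 in WT, with DKO highest (interaction of 1.06 ± 0.09, limma adjusted p = 1.78e-06), while Fas, a death receptor, held 511 and 522 in DKO, 1175 and 1077 in Rb1 KO, 181 and 206 in Kdm5a KO and 75.4 and 91.7 in WT and was partly suppressed (interaction of −2.33 ± 0.19, limma adjusted p = 1.58e-06).

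Additive proliferation genes, chosen after their values were seen, included Rbl1, Dnmt1 and Ncapd2. Rbl1, the pocket protein p107, held 1521 and 1487 in DKO, 1334 and 1316 in Rb1 KO, 215 and 195 in Kdm5a KO and 219 and 181 in WT. Dnmt1, the maintenance DNA methyltransferase, held 3993 and 3914 in DKO, 3698 and 3759 in Rb1 KO, 666 and 527 in Kdm5a KO and 654 and 559.6 in WT. Ncapd2, a condensin subunit, held 5065 and 4983 in DKO, 4835 and 4487 in Rb1 KO, 1154 and 1213 in Kdm5a KO and 1112 and 1166 in WT. Ncapd2 shares exons with another gene. In all 3 both Rb1-null genotypes lay well above Kdm5a KO and WT, whose libraries overlapped. An E2F motif, any of TTTCCCGC, TTTCGCGC, TTTGCCGC or TTTGGCGC on either strand, was present in 3.56% of all promoters, 9.29% of promoters of additive rises and 39.7% of those of the G1/S list. Within that list it was present in 7 of 10 promoters of partly suppressed genes, 2 of 8 of additive genes and 0 of 8 of enhanced genes. The motif TTTGAA on either strand, the cell-cycle homology region, was present in 12.2% of all promoters and in 61.1% of those of the G2/M list. Stretches upstream of the 3 additive genes are shown because each holds the E2F motif (capitals, as read on the strand of the gene). They lie at chr2:157204535-157204594, chr9:20952809-20952868 and chr6:125191587-125191646 of GRCm38.p6, all on the minus strand.
Rbl1: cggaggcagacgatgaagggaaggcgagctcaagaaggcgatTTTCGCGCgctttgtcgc
Dnmt1: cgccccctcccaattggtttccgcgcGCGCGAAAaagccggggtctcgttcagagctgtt
Ncapd2: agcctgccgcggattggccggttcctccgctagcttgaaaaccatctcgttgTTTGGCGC

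Among additive genes with no shared exon, no clone name and a highest group mean of at least 100, only 5 had both single effects passing at 2-fold or more. Additive genes outside these limits were not counted. Mrc2, a collagen receptor, held 879 and 869 in DKO, 2304 and 2732 in Rb1 KO, 144 and 122 in Kdm5a KO and 309 and 365 in WT. Kdm5a loss lowered it in both Rb1 genotypes and Rb1 loss raised it in both (interaction of −0.18 ± 0.17, limma adjusted p = 0.435). Chrm3, a muscarinic receptor, held 326 and 344 in DKO, 714 and 766 in Rb1 KO, 129 and 118 in Kdm5a KO and 232 and 294 in WT, in the same order (interaction of −0.07 ± 0.20, limma adjusted p = 0.82). Calhm5, a calcium homeostasis modulator, held 366 and 392 in DKO, 171 and 186 in Rb1 KO, 1509 and 1788 in Kdm5a KO and 698 and 806 in WT, and Trappc3l, a paralog of a vesicle tethering subunit, held 429 and 462 in DKO, 203 and 219 in Rb1 KO, 1658 and 1955 in Kdm5a KO and 739 and 839.97 in WT. In these 2 genes Kdm5a loss went with higher and Rb1 loss with lower values (interaction of −0.05 ± 0.16, limma adjusted p = 0.828 and interaction of −0.11 ± 0.16, limma adjusted p = 0.596).

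Enhancement was rarer than suppression. Among falls, Pdk1, a kinase that inhibits pyruvate dehydrogenase, held 136 and 109 in DKO, 344 and 287 in Rb1 KO, 2632 and 2482 in Kdm5a KO and 808 and 1173 in WT (interaction of −2.76 ± 0.23, limma adjusted p = 1.79e-06). It was highest in Kdm5a KO and lowest in DKO. Llgl2, a cell polarity protein, had the same order, with 15.8 and 14.2 in DKO, 67.5 and 41.6 in Rb1 KO, 252 and 316 in Kdm5a KO and 84.9 and 172 in WT (interaction of −2.98 ± 0.49, limma adjusted p = 0.000422). Among rises, Ugt8a, a galactosyltransferase of myelin lipids, held 241 and 269 in DKO, 74.3 and 71.5 in Rb1 KO, 0 and 0.7001 in Kdm5a KO and 5.98 and 2.13 in WT (interaction of 3.63 ± 0.69, limma adjusted p = 0.00126). Agtr2, an angiotensin receptor, held 116 and 135 in DKO, 51.3 and 66.1 in Rb1 KO, 1.81 and 0 in Kdm5a KO and 4.79 and 6.396 in WT (interaction of 3.06 ± 0.74, limma adjusted p = 0.00591), and Sct, the hormone secretin, held 404 and 417 in DKO, 215 and 154 in Rb1 KO, 12.7 and 18.9 in Kdm5a KO and 40.7 and 62.9 in WT (interaction of 2.82 ± 0.40, limma adjusted p = 0.000154). In each DKO was highest and Kdm5a KO lowest. Ugt8a and Agtr2 had a Kdm5a KO library at 0, so the size of their fitted interaction depends on the pseudocount. Without the second DKO library the number of enhanced genes was 243 in place of 383.

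The Hox cluster genes, transcription factors that give cells position along the body and limb axes, were more often negative than positive. Of 33 tested, 17 were negative, 3 positive and 13 did not pass, and the negatives were 4 of 11 in Hoxa, 5 of 8 in Hoxb, 5 of 7 in Hoxc and 3 of 7 in Hoxd. Hoxb7 held 73.1 and 71.9 in DKO, 158 and 203 in Rb1 KO, 103 and 126 in Kdm5a KO and 11.96 and 14.9 in WT and was reversed (interaction of −4.29 ± 0.37, limma adjusted p = 2.28e-06), with WT lowest. Hoxc6, chosen after its values were seen, held 62.1 and 43.5 in DKO, 348 and 409 in Rb1 KO, 64.2 and 58.1 in Kdm5a KO and 26.3 and 23.5 in WT (interaction of −4.10 ± 0.37, limma adjusted p = 2.89e-06), with Rb1 KO above every other library. Hoxa9, emergent by rule and with shared exons, held 19.99 and 15.8 in DKO, 258 and 231 in Rb1 KO, 248 and 286 in Kdm5a KO and 250.1 and 324 in WT (interaction of −3.61 ± 0.29, limma adjusted p = 1.26e-06), and only DKO stood apart. Hoxa10 held 46.3 and 39.9 in DKO, 417 and 464 in Rb1 KO, 634 and 635 in Kdm5a KO and 853 and 960.4 in WT (interaction of −2.81 ± 0.18, limma adjusted p = 1.91e-07), an enhanced fall. Hoxc10, chosen after its values were seen, was detected mainly in Kdm5a KO, with 8.42 and 10.3 in DKO, 4.05 and 22.6 in Rb1 KO, 274 and 289.9 in Kdm5a KO and 0 and 0 in WT, and it shares exons with Hoxc5. The genotypes thus differed in which Hox genes they expressed, and genotype cannot be told apart from the origin of the cells in this design.

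**Figure D5:**
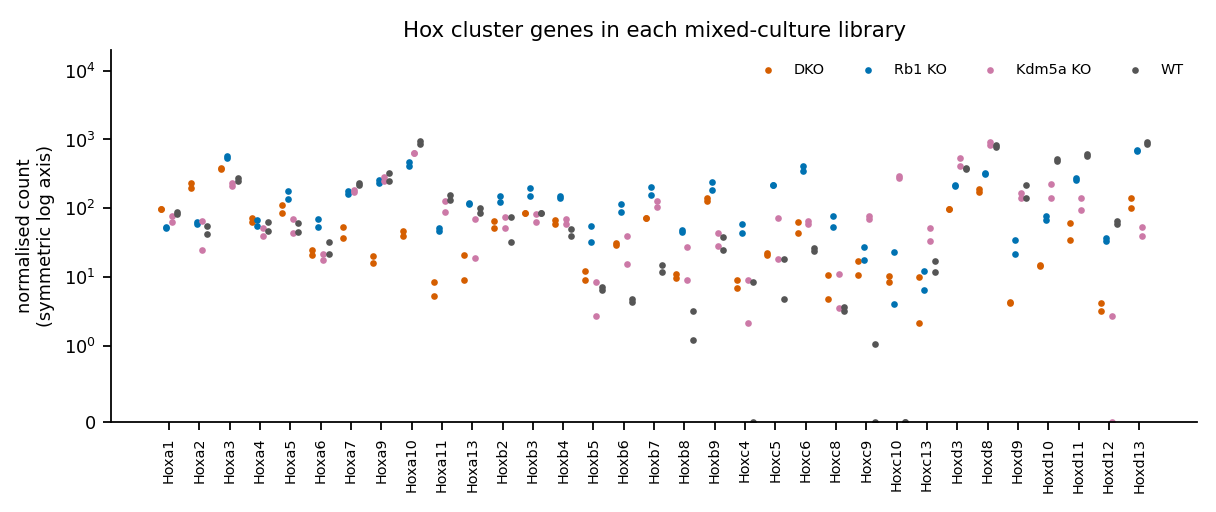
Deposited normalised counts of the 33 Hox genes tested, in each of the 8 mixed-culture libraries (points, 2 per genotype, y axis symmetric log from 0), in cluster and number order. Hoxa9 to Hoxa11 were lowest in DKO, Hoxc4 to Hoxc8 were highest in Rb1 KO, and Hoxc10 was highest in Kdm5a KO.

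A further 680 genes were emergent, in that the interaction passed although neither single loss did, 283 positive and 397 negative. Mtnr1a, a melatonin receptor, held 4.73 and 4.35 in DKO, 111 and 104 in Rb1 KO, 81.4 and 98.02 in Kdm5a KO and 52.6 and 93.8 in WT, and DKO alone was low (interaction of −4.63 ± 0.48, limma adjusted p = 9.85e-06). Smpdl3a, a phosphodiesterase related to acid sphingomyelinase, held 73.6 and 62.03 in DKO, 179.6 and 225 in Rb1 KO, 202 and 207 in Kdm5a KO and 144 and 161 in WT (interaction of −1.98 ± 0.27, limma adjusted p = 9.94e-05), again lowest in DKO. Enpep, an aminopeptidase, held 116 and 129.6 in DKO, 14.9 and 15.4 in Rb1 KO, 17.2 and 21.7 in Kdm5a KO and 16.8 and 29.8 in WT (interaction of 3.14 ± 0.53, limma adjusted p = 0.000516), and Ribc2, a ciliary protein, held 127 and 119 in DKO, 17.6 and 25.3 in Rb1 KO, 18.99 and 14.003 in Kdm5a KO and 20.3 and 17.1 in WT (interaction of 2.67 ± 0.51, limma adjusted p = 0.00125). In both genes DKO alone was high.

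In 489 genes the interaction and Kdm5a KO against WT passed and Rb1 KO against WT did not, 274 with a positive and 215 with a negative interaction; Kdm5a KO against WT passed for 27.2% of all genes. Sparcl1, a matricellular protein, held 155 and 152 in DKO, 25.7 and 48.9 in Rb1 KO, 6.33 and 4.901 in Kdm5a KO and 37.1 and 37.3 in WT (interaction of 4.62 ± 0.52, limma adjusted p = 2.26e-05). It was lowest in Kdm5a KO and highest in DKO. Insm1, a neuroendocrine transcription factor, held 148 and 84.1 in DKO, 17.6 and 22.6 in Rb1 KO, 2.71 and 3.501 in Kdm5a KO and 17.9 and 12.8 in WT (interaction of 4.41 ± 0.62, limma adjusted p = 0.000137), in the same order. Srgn, the proteoglycan serglycin, held 16.8 and 22.9 in DKO, 20.3 and 8.15 in Rb1 KO, 379 and 378 in Kdm5a KO and 15.6 and 23.5 in WT (interaction of −3.67 ± 0.59, limma adjusted p = 0.000354), and only Kdm5a KO stood apart. Trib3, a pseudokinase of the stress response, held 23.7 and 24.5 in DKO, 82.4 and 129 in Rb1 KO, 159 and 166 in Kdm5a KO and 82.6 and 79.9 in WT, highest in Kdm5a KO and lowest in DKO (interaction of −3.04 ± 0.37, limma adjusted p = 3.92e-05). Without the first Kdm5a KO library the number of calls of Kdm5a KO against WT was 3057 in place of 4685.

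Several metabolic lists had more negative than positive interactions. Of 22 glycolysis genes, 10 were negative and 4 positive, with a median of −0.36. Pfkl, the liver form of phosphofructokinase, held 242 and 219 in DKO, 739 and 780.2 in Rb1 KO, 2667 and 2604 in Kdm5a KO and 1414 and 1586 in WT (interaction of −2.53 ± 0.12, limma adjusted p = 1.56e-08), whereas Pfkm, the muscle form, held 4350.3 and 4393 in DKO, 1356 and 1319.6 in Rb1 KO, 6972 and 7129 in Kdm5a KO and 9203 and 8883 in WT (interaction of 2.07 ± 0.07, limma adjusted p = 8.93e-10). The 2 forms had interactions of opposite sign, and Pfkm shares exons with another gene. Of 34 autophagy and lysosome genes, 20 were negative and 2 positive. Ctsz, Ctsb and Ctsl, lysosomal cathepsins, had interactions of −1.44, −1.08 and −0.89, all with shared exons. Of 25 genes of endoplasmic reticulum stress, the amino-acid response and heat shock, 13 were negative and 4 positive. Asns, asparagine synthetase, held 496 and 409 in DKO, 1084 and 1118 in Rb1 KO, 1259.7 and 1390.5 in Kdm5a KO and 715 and 796 in WT, lowest in DKO (interaction of −2.10 ± 0.15, limma adjusted p = 3.41e-07). Of 27 cholesterol and fatty acid synthesis genes 7 were positive and 8 negative. Cytosolic ribosomal proteins had 6 positive and 9 negative interactions of 68, and proteasome subunits 9 positive and 1 negative of 31, where 38.3% of all genes passed.

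Markers of other cell types had called interactions in both directions. Their counts are read against the 38.3% of all genes called, 18.8% positive and 19.5% negative. Smooth muscle and myofibroblast markers had 10 negative and 4 positive interactions of 17, and their summed level was 36505 and 36161 in DKO, 67818 and 69361 in Rb1 KO, 51652 and 50619 in Kdm5a KO and 68424 and 69287 in WT libraries. Cartilage and bone markers had 3 negative and 0 positive of 10, with sums of 9224 to 10479 in DKO, 25664 to 27398 in Rb1 KO, 39475 to 46033 in Kdm5a KO and 10314 to 11249 in WT libraries. The median log2 difference of Kdm5a KO against WT over these markers was only 0.26, so the sums do not describe the typical member. Endothelial markers had 3 positive and 1 negative of 7, and Cdh5, VE-cadherin, ranged from 97.3 to 102 in DKO, 5.40 to 18.1 in Rb1 KO, 25.3 to 25.9 in Kdm5a KO and 2.39 to 3.198 in WT libraries. Macrophage and blood markers had 3 negative and 2 positive of 10, adipocyte markers 1 negative and 2 positive of 7, neural markers 1 and 1 of 7 and epithelial markers 1 and 0 of 3. Of the markers listed, only 7 of 14 adipocyte, 7 of 14 neural and 3 of 10 epithelial ones were tested. Epcam was at most 5.53 in any mixed library, whereas Cdh1, also epithelial, reached 73.0 in a WT library. Of the cartilage markers Acan was at most 4.73, and Col2a1 ranged from 46.3 to 57.3 in DKO, 85.1 to 103 in Rb1 KO, 1.81 to 2.80 in Kdm5a KO and 0 to 12.8 in WT libraries. The adipocyte markers Adipoq and Plin1 were at most 8.94 and 14.9. The part of such cells in the interaction was not tested.

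The purified myotubes of DKO and WT, with 2 libraries each, took no part in the classes. They were separated by size, sequenced from oligo(dT)-selected RNA in reads of 36 bases, and include neither single knockout, so no interaction can be formed there. DKO against WT passed for 39.6% of 16670 genes, 21.0% higher and 18.6% lower. Of the genes enhanced upward 86.4% rose, of additive rises 67.2%, of partly suppressed rises 50.7% and of fully suppressed rises 24.9%. Among reversed rises 37.3% fell and 16.4% rose. The falls showed the same order, with 77.1% of enhanced, 57.5% of additive, 44.6% of partly suppressed and 24.3% of fully suppressed falls lower in purified DKO, and 28.5% of reversed falls higher against 18.7% lower. The median log2 difference of DKO against WT in mixed cultures had this order already. It was 2.43 for enhanced, 1.44 for additive, 1.41 for partly suppressed, 0.57 for fully suppressed and −0.17 for reversed rises. Falls had −1.95, −1.23, −1.05, −0.30 and 0.30 in the same sequence. The purified shares therefore describe DKO against WT and do not test suppression or reversal. The 2 purified DKO libraries differed far more than other replicates did, by 76.7 times counting error. The number of calls was 1983 and 2170 without the first and the second WT library, and 11574 and 10310 without the first and the second DKO library. The share of reversed rises that fell then ranged from 11.8% to 47.7%. The class medians moved less. The median log2 difference of reversed rises was −0.56 with all 4 libraries and −0.68 to −0.51 without 1 of them, that of reversed falls 0.35 and 0.27 to 0.34, and that of partly suppressed falls −0.85 and −0.93 to −0.77.

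Single genes are examples here, and agreement between purified myotubes and mixed cultures was not counted. Col3a1, chosen after its values were seen and with shared exons, was higher in DKO than WT in mixed cultures (log2 difference 0.41). It was lower in purified myotubes (−1.47). Myod1 was lower in mixed cultures (−1.31) and nearly level in purified myotubes (−0.05). The genes given next, except Cd36, differed between DKO and WT in the same direction in purified myotubes as in mixed cultures. Esrrg held 226 and 296 in purified DKO and 5.58 and 4.97 in purified WT (log2 difference 5.37 ± 0.36, limma adjusted p = 0.00128), and Pde1c held 867 and 711 in purified DKO and 409 and 339 in purified WT (log2 difference 1.07 ± 0.23, limma adjusted p = 0.0194). Both were higher in DKO, as in mixed cultures. Col12a1 held 268 and 294 in purified DKO and 2115 and 2174 in purified WT (log2 difference −2.93 ± 0.19, limma adjusted p = 0.00123) and Thbs1 3771 and 2755 in purified DKO and 8007 and 9959.7 in purified WT (log2 difference −1.47 ± 0.25, limma adjusted p = 0.0101), both lower in DKO. Musk was much lower in DKO, at 71.6 and 71.2 in purified DKO and 2606 and 2259 in purified WT (log2 difference −5.07 ± 0.21, limma adjusted p = 0.000849), and Cd36, at WT levels in mixed DKO cultures, held 563 and 275 in purified DKO and 2355 and 2098 in purified WT (log2 difference −2.49 ± 0.37, limma adjusted p = 0.00729).

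The sign of a called interaction seldom depended on the scale. No test was run on the linear scale, so calls were not compared, and the additive class holds on the log2 scale only. Of the 6591 genes with a called interaction, 125 had the opposite sign when the same difference of differences was taken on the deposited values without logarithms. For 553 of them the linear expectation for DKO, the sum of both single effects added to WT, was below 0, a level that no gene can have. Their linear sign was therefore positive whatever the DKO value.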

How the data were processed

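The labels describe 8 libraries of mixed cultures and 4 of purified myotubes. The deposited values are a signal, read counts per gene divided by a size factor per library; TopHat 1.2.0, mm9 and DESeq are named per the submitters' processing notes, and the counting tool and annotation are not given in the sources used here. Whole reads were recovered from the steps of the values, all within 0.01 of a read, and the totals of these reads give the depth. A gene symbol was matched for 30983 of 36229 identifiers (85.5%). Genes whose values averaged 10 or more were fitted with limma 3.58.1 (R 4.3.3) on log2(value + 1), with 1 mean per genotype over the 8 mixed libraries and no other term. Adjusted p-values are Benjamini-Hochberg over all genes tested, and errors are standard errors. The purified libraries were fitted alone. The count models of edgeR 4.0.16 and DESeq2 1.42.0 on the recovered reads were alternatives. The code was tested on simulated data. Named genes were fixed regulators, the 4 with the largest interaction per class and direction (highest group mean at least 100, no shared exon, no clone name), and up to 3 per gene list with the smallest interaction p; a selection of these is described. Members and lists were chosen with earlier results of these data known. Promoters were read from RefSeq on GRCm38.p6, and coordinates of that build are used only for them.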

Additional observations from a re-analysis of the deposited data

Results flagged for a closer look

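The effect of Rb1 loss differed between the Kdm5a-null and the Kdm5a-intact background, by the interaction test, for 6591 genes. Among the regulators named whatever their result, the log2 interaction was 0.43 for Rb1, −0.52 for Kdm5b, 0.59 for Myod1, 1.28 for Myog, 1.78 for Myh3 and 1.21 for Ppargc1a. In the fit on all 12 libraries the calls of Rb1, Kdm5b, Myod1 and Ppargc1a were lost, with limma adjusted p of 0.0583, 0.0568, 0.488 and 0.0777.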

How the results depend on the processing

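The interaction was called for 6793 genes with edgeR's quasi-likelihood test on the recovered reads, 6484 of them shared with limma and all with the same sign. Without genes that share exons the calls were 2077 positive and 2117 negative for the interaction, 7914 for Rb1 KO against WT, 7413 for DKO against Kdm5a KO, 3015 for Kdm5a KO against WT, 5228 for DKO against Rb1 KO and 7494 for DKO against WT, and 1683 genes were suppressed, 166 reversed, 249 enhanced, 463 additive and 419 emergent, since fewer genes were tested. At an adjusted p threshold of 0.01, Kdm5a KO against WT had 2655 calls, and 160 genes were reversed and 220 enhanced. With an Rb1 effect of at least 1.5-fold 442 were reversed, 683 enhanced and 1453 additive, and with at least 4-fold 1247 were suppressed, 77 reversed, 121 enhanced and 95 additive. An additive bound of 2-fold gave 1457. The fit on all 12 libraries gave 1520 positive and 1390 negative interactions, 1272 calls for Kdm5a KO against WT and 4742 for DKO against Rb1 KO, with 1464 genes suppressed, 165 reversed, 130 enhanced, 247 additive and 444 emergent; the cause was not tested. Leaving out 1 library gave 3057 to 4697 calls for Kdm5a KO against WT, 243 to 409 enhanced genes and 1983 to 11574 calls in purified myotubes.

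Same-numbered libraries did not deviate together between the mixed genotypes (correlations −0.03 to 0.05) and share only a number. With the replicate block the interaction had 6543 calls, 6412 of them shared, and the purified comparison 7629. Without 1 library, interactions that had not been called ranged over 0 for Kdm5a (−0.041 to 0.15), Calhm5 (−0.17 to 0.070), Trappc3l (−0.23 to 0.0038), Chrm3 (−0.24 to 0.10), Cdh1 (−0.65 to 3.91) and Cldn4 (−1.82 to 0.95). Without the second WT library Cdh1 gained a call (3.91, limma adjusted p = 0.0056), as did Map2 (0.35, limma adjusted p = 0.0191). On the linear scale the sign turned for Kdm5a (−32.0), Myh3 (−10017), Ms4a4d (47.0) and Map2 (−24.7). Depth and 2 libraries per genotype limit low genes most, and many of their interactions stay undetermined.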
